A study of Mus musculus with 6 samples.

Results

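The actin cytoskeleton of CD8+ T cells was followed through 10 genes in the RNA-Seq libraries of the static magnetic field (SMF) experiment. The genes were *Actb* and *Actg1*, which encode the 2 cytoplasmic actins, and 8 genes for proteins that bind actin monomers, turn filaments over, branch them or bundle them (*Tmsb4x*, *Tmsb10*, *Pfn1*, *Cfl1*, *Coro1a*, *Arpc2*, *Was* and *Lcp1*). They were picked by gene name for their place in actin dynamics, and all 10 were found among the 54446 annotated genes. CD8+ T cells were purified by negative selection from the spleens of 8-week-old wild-type C57BL/6 mice. Unstimulated cells were fresh, Control cells were activated through CD3 and CD28 by antibodies and kept without magnets, and SMF cells received the same stimulation on permanent magnets of 0.3 T. Stimulation lasted 72 h. Each group had 2 libraries, and the labels do not say whether these came from separate mice, so the p values measure the spread between libraries only. Levels are given as FPKM (fragments scaled to transcript length and to library size), summed over the transcripts of a gene.

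Actin is a globular protein that polymerizes into filaments, and filaments grow at the barbed end while older subunits leave at the pointed end. Profilin and the thymosins hold the monomers, cofilin severs old filaments, the Arp2/3 complex starts branches when WASP family proteins activate it, and plastin binds filaments into bundles. In T cells this machinery drives migration and shapes the immunological synapse, the contact through which a CD8+ T cell recognizes and kills a target. *Actb* is also widely used as a reference gene, and the study's real-time PCR was normalized to it.

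The libraries differed in ways that bear on every comparison. Depth, taken as the deposited coverage times transcript length, was 67.4 and 132 Mb in Unstimulated, 64.4 and 172 Mb in Control and 259 and 227 Mb in SMF. Protein-coding genes held 49.3% and 49.7% of the summed FPKM in Unstimulated and 49.1% and 50.5% in Control, but 69.2% and 68.7% in SMF. Dates in the file headers place Unstimulated and Control replicate 1 in June 2017, replicate 2 of both in November 2017, and both SMF libraries in October 2018. They are dates in the names of folders, so they do not say when the cells were cultured or the libraries made. No date holds both SMF and another group, so the field and the date cannot be told apart in any comparison with SMF. According to the record of the series, its first set of samples was later exchanged for the present one.

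The labelled cell type was checked with marker genes. The 6 CD8 T cell markers (*Cd8a*, *Cd8b1*, *Cd3d*, *Cd3e*, *Cd3g* and *Trac*) summed to 658 and 784 FPKM in Unstimulated, 349 and 566 in Control and 950 and 854 in SMF, and none was at 0 in all libraries. *Gzmb*, the granule protease of activated killer cells, stood at 10.2 and 11.7 FPKM in Unstimulated, 1494 and 1565 in Control and 2282 and 4283 in SMF. B cell, myeloid and stromal markers were highest in fresh cells. The 5 B cell markers summed to 110.1 and 94.5 FPKM in Unstimulated, 23.3 and 7.78 in Control and 4.50 and 2.43 in SMF, with *Cd79a* the most abundant. The 7 myeloid markers summed to 131 and 153, 47.0 and 53.8, and 41.1 and 50.5 FPKM in the same order, with *Csf1r* the most abundant by the mean, *Lyz2* at 0 in the stimulated libraries and *S100a8* at 0 everywhere. In the stimulated libraries 5 of the 7 were at 0, and *Csf1r* made up all or nearly all of the sum. The 7 stromal and smooth muscle markers, led by *Tagln*, summed to 134 and 85.4 FPKM, 40.9 and 31.9, and 28.5 and 25.8. Of these 7, 4 were at 0 in every library, and *Tagln* made up most of each sum. CD4 T cell, erythroid, platelet and NK markers summed to at most 25.02, 21.8, 13.5 and 73.9 FPKM in any library; *Klrc1*, which activated CD8+ T cells also express, made up the stimulated NK total. These cells also contain actin, and their part in the differences from Unstimulated was not tested. In bulk RNA, fewer cells of a type and less RNA per cell cannot be told apart.

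The sequences of 2 pairs of related genes are shown, because their reads have to be kept apart. The first pair is *Actg1* and *Gm12715*, a processed pseudogene on chromosome 4 (GRCm38, 103563402 to 103564529). Over the 1128 coding bases of *Actg1* they differ at 4 positions (99.6% identity), and the 60 bases from coding position 805 to 864 hold 3 of the 4, shown in capitals (GENCODE M21 transcripts):
Actg1: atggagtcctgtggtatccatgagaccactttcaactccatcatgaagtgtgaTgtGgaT
Gm12715: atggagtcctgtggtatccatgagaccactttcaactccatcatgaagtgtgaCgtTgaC
The second pair is *Tmsb4x* and *Tmsb10*, which encode thymosin beta 4 and thymosin beta 10. Their coding sequences have the same length, 135 bases, and differ at 40 positions (70.4% identity), in capitals:
Tmsb4x: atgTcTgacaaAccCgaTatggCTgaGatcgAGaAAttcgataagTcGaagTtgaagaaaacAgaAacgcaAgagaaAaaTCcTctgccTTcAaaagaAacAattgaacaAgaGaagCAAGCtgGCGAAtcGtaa
Tmsb10: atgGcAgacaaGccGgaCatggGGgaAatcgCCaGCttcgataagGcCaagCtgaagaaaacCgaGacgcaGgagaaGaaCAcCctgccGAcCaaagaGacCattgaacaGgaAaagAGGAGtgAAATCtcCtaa
The differences are spread along the whole thymosin sequence, whereas a coding read that misses the 4 differing bases fits *Actg1* and *Gm12715* equally well.

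All 10 genes were detected in every library, and most were among the most abundant messages of the cell. By the mean over the 6 libraries the order was *Actb* (985 FPKM), *Tmsb10* (757), *Pfn1* (661), *Tmsb4x* (379), *Cfl1* (274), *Actg1* (224), *Lcp1* (177), *Coro1a* (161), *Arpc2* (133) and *Was* (23.2). The last step held in all 6 libraries: *Arpc2* was above *Was* in each. The other neighbours changed places in at least 1 library, with *Lcp1* above *Coro1a* in only 3 of 6. Among 21918 protein-coding genes, *Actb* ranked between 14 and 55, *Tmsb10* between 17 and 48 and *Pfn1* between 19 and 60. *Was*, the upstream activator, ranked between 1669 and 3033. Together the 10 genes made up 1.36% and 1.28% of protein-coding FPKM in Unstimulated, 1.14% and 1.35% in Control and 1.502% and 1.31% in SMF, so their combined share did not separate the groups.

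**Figure D1:**
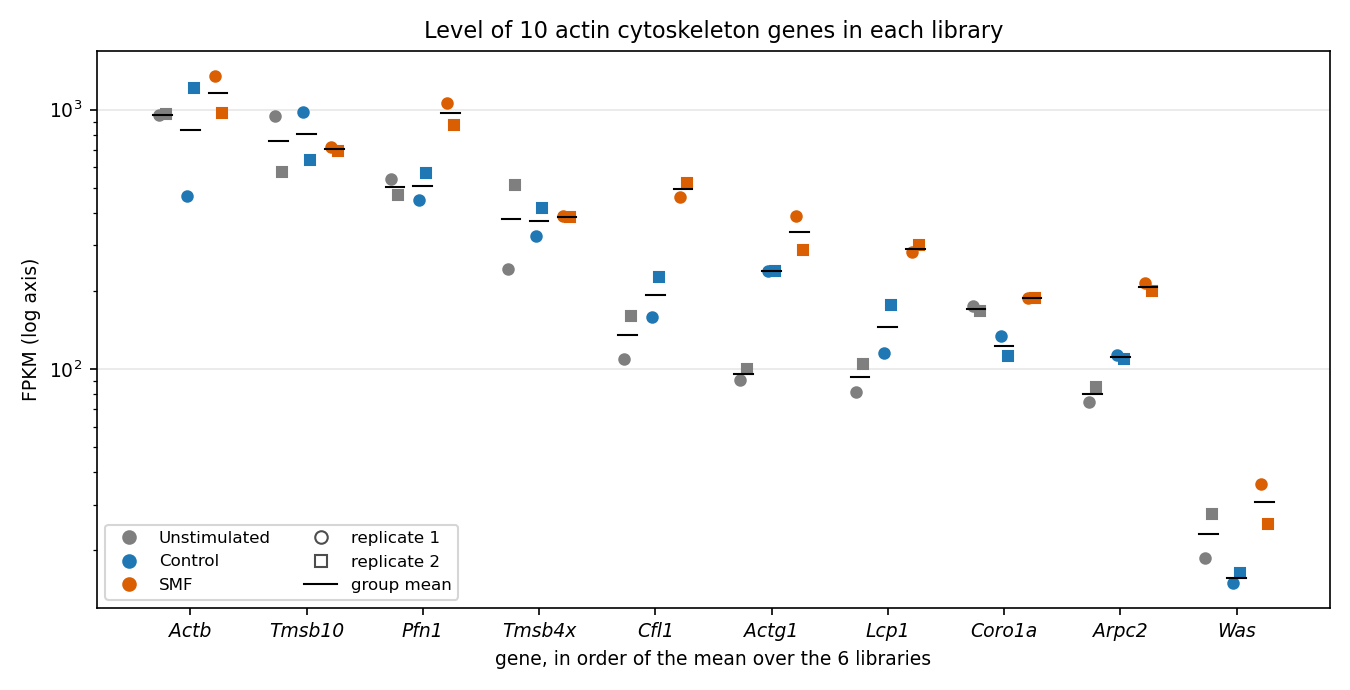
FPKM (log axis) of the 10 genes in the 6 libraries, ordered by mean level; points are libraries, shapes are replicates and bars are group means. *Actb* spread from 463 to 1208 FPKM between the Control libraries, while both SMF libraries lay above all others for *Pfn1*, *Cfl1*, *Actg1*, *Lcp1*, *Coro1a* and *Arpc2*.

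Differences were tested with limma, fitted to log2(FPKM + 1) in the 3 groups together. The test covered 14991 genes whose mean reached 1 FPKM, a filter that all 10 genes passed. A gene was called by the study's thresholds, that is, when it changed at least 2-fold with an unadjusted p no higher than 0.05. From Unstimulated to Control, 1 of the 10 genes was called higher (*Actg1*) and 0 lower, against 12.3% and 12.6% of all genes tested. From Unstimulated to SMF, 4 were called higher (*Actg1*, *Cfl1*, *Lcp1* and *Arpc2*) and 0 lower, against 22.4% and 14.8%. From Control to SMF, 2 were called higher (*Cfl1* and *Lcp1*) and 0 lower, against 12.5% and 5.72%. With Benjamini-Hochberg adjustment over all genes and no fold limit, limma gave 1, 5 and 0 genes in these comparisons, all higher, the fifth in SMF against Unstimulated being *Pfn1*. By that rule 4.52%, 14.2% and 0.02% of all genes were higher and 3.96%, 9.4% and 0.00667% lower. At an unadjusted limma p under 0.05 and any fold, 1, 5 and 6 of the 10 genes passed, against 26.9%, 39.1% and 21.1% of all genes. The 3 comparisons share libraries and are not independent of each other. Control and Unstimulated can also be compared within a date, and there 7 of the 10 genes had the same sign on both dates, near the 63.4% of all genes that did, the exceptions being *Actb*, *Pfn1* and *Tmsb4x*.

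**Figure D2:**
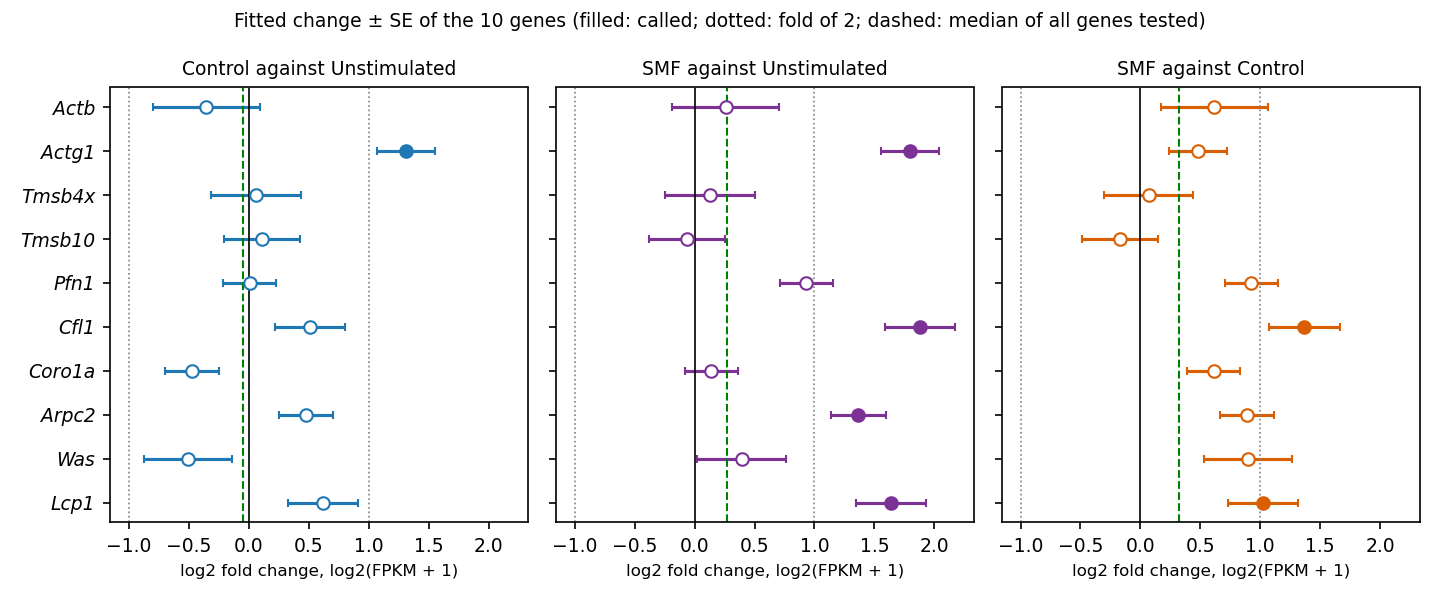
Log2 fold change ± SE of each gene in the 3 comparisons, with filled points for called genes, dotted lines at a fold of 2 and a dashed line at the median of all genes tested. *Actg1* alone is filled for Control against Unstimulated, and *Cfl1* and *Lcp1* for SMF against Control.

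In the fit reported, the genes as a whole were shifted upward in both comparisons with SMF. The median log2 fold change of all genes tested was 0.27 for SMF against Unstimulated and 0.32 for SMF against Control, but -0.05 for Control against Unstimulated. For the 10 genes the medians were 0.66, 0.75 and 0.08. With each library set to one median, all genes split into 877 higher and 1441 lower for SMF against Control, in place of 1868 and 857, and the median of the 10 genes was 0.41. For SMF against Unstimulated this scaling gave 2756 higher and 2694 lower, in place of 3351 and 2226. Setting each library to one protein-coding sum gave 2346 higher and 2978 lower for that comparison. Its median over all genes was 0.01 and -0.09 under these scalings. Relative to the median of all genes, *Cfl1* stood 1.05 above on the log2 scale in SMF against Control, *Lcp1* 0.70, *Pfn1* 0.61, *Was* 0.58 and *Arpc2* 0.57. *Actb* and *Coro1a* stood 0.30 and 0.29 above it, *Actg1* 0.16 above it, and *Tmsb4x* and *Tmsb10* stood 0.25 and 0.49 below it.

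Of the actins, *Actb* (beta-actin, chr5:142903115-142906754 in GRCm38, the build of all positions given here) was measured at 954 and 962 FPKM in Unstimulated, 463 and 1208 in Control and 1348 and 974 in SMF. The summed levels of the fresh libraries nearly coincided, while the Control libraries differed by 2.61-fold and enclosed both Unstimulated values. The fresh libraries differed in transcripts: ENSMUST00000100497.10 carried 53.5% of *Actb* in Unstimulated replicate 1 and 89.6% in replicate 2. The fitted log2 change was -0.36 ± 0.45 (SE, adjusted p = 0.655 in limma) from Unstimulated to Control and 0.62 ± 0.45 (adjusted p = 0.457 in limma) from Control to SMF, and neither was called. The Control libraries decided these values. Without Control replicate 1, the shallowest library, SMF against Control came to -0.075. Without Control replicate 2 it came to 1.31 and was called, and Control against Unstimulated came to -1.05 and was called. Within the dates, Control against Unstimulated was -1.04 in replicate 1 and 0.33 in replicate 2.

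*Actg1* (gamma-actin, chr11:120345690-120348542) was at 91.1 and 100.2 FPKM in Unstimulated, 238 and 240 in Control and 390 and 287 in SMF. Both replicates of stimulated cells lay above both fresh libraries, and the 3 groups did not overlap. *Actg1* rose 2.48-fold from Unstimulated to Control (log2 change 1.31 ± 0.24, adjusted p = 0.0294 in limma) and 3.47-fold from Unstimulated to SMF (1.80 ± 0.24, adjusted p = 0.00714 in limma). Within the dates the change from Unstimulated to Control was 1.38 and 1.25. Both calls held in all alternatives run at the study's thresholds. The adjusted p in limma for Control against Unstimulated rose above 0.05 without the variance trend (0.105), with only the 4 libraries compared (0.0969, or 0.157 with a replicate block) and without any one library (0.0894 to 0.116). SMF against Control was 0.48 ± 0.24 and was not called (unadjusted p = 0.0906 in limma). The annotated exons of *Actg1* overlap *Gm23419* by 83 bases and *Mir6935* by 64 bases on the same strand, where strand cannot separate reads. *Gm23419* was listed at 15.3 and 5.68 FPKM in Unstimulated, 5.11 and 2.49 in Control and 2.05 and 4.155 in SMF. *Mir6935* was listed at 0 in every library.

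The pseudogene *Gm12715* was listed at 23.8 and 37.1 FPKM in Unstimulated, 86.2 and 96.6 in Control and 166 and 150 in SMF. Its libraries ranked in the same group order as those of *Actg1*. In all, 13 annotated copies of *Actg1* (pseudogenes or single-exon genes aligning over at least 200 bases at 90% identity or more) summed to between 27.3% and 54.2% of the FPKM of *Actg1*, so its level is uncertain by that much. Adding them to *Actg1* gave a log2 change of 1.39 from Unstimulated to Control. For the other genes the copies mattered less: at most 0.728% for *Actb*, 8.01% for *Cfl1*, 5.56% for *Tmsb10* and 4.35% for *Arpc2*, and there was no such copy for *Pfn1*, *Coro1a*, *Tmsb4x* and *Was*.

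The ratio of the actins within a library does not depend on how libraries are scaled. *Actg1* made up 8.72% and 9.44% of *Actb* plus *Actg1* in Unstimulated, 34.0% and 16.6% in Control and 22.4% and 22.7% in SMF. All 4 stimulated libraries lay above both fresh ones, and the SMF values fell between the Control values. With the copies added the group means were 11.7%, 31.7% and 30.3%, in place of 9.08%, 25.3% and 22.6%. An exact two-sided permutation test of 2 libraries against 2 cannot give a p below 0.333, and the shares were not tested in another way.

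**Figure D3:**
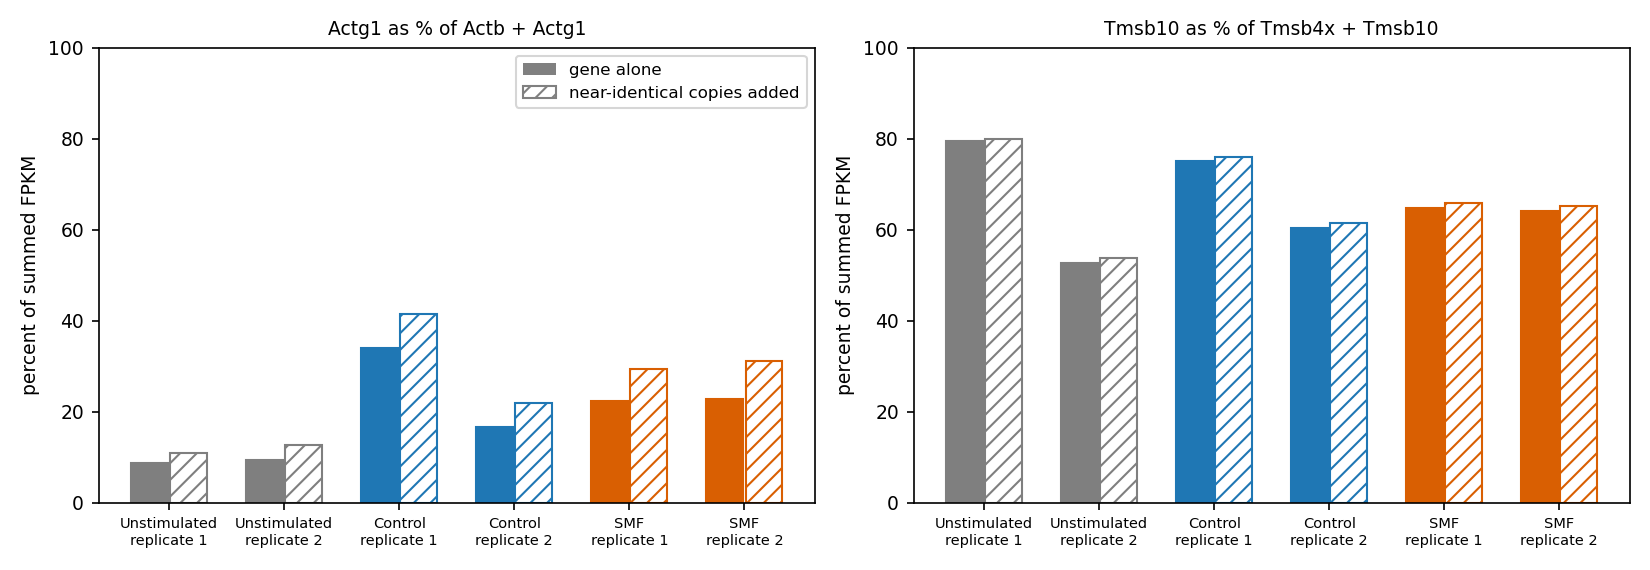
Share of *Actg1* in the summed FPKM of the cytoplasmic actins and of *Tmsb10* in that of the thymosins, in percent, in each of the 6 libraries; hatched bars include near-identical copies. Without copies the actin share is at most 9.44% in Unstimulated and at least 16.6% in the stimulated libraries, and with copies at most 12.6% and at least 22.0%, while the thymosin share varies most between the Unstimulated libraries.

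Promoter sequence from RefSeq (GRCm38.p6), from 250 bases before to 50 after the start site, was read for 9 of the 10 genes, in 13 windows. The promoter of *Actb* was not analysed here. A CArG box, the binding motif of serum response factor, was searched on both strands because many actin genes are known to be regulated through it. It was found in 1 of the 9 genes and 1 of the 13 windows, in *Actg1*, starting 90 bases before the start site. Of 32851 promoters, 1.63% hold one. The 150 bases up to the *Actg1* start site follow, with the motif in capitals (chr11:120348496-120348645, minus strand):
Actg1 promoter: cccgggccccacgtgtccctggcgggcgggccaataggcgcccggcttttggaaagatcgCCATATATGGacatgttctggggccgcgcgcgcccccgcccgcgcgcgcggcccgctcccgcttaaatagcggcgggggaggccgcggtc
For comparison, the letters GGGCGG were found in 8 of the 9 genes (11 of 13 windows) and in 35.7% of all promoters. TATAAA was found in 0 of the 9 genes (0 of 13 windows) and in 13.6% of all promoters. A match is a description of the sequence and was not linked to binding. The RNA of *Srf*, which encodes serum response factor, was at 19.5 and 10.7 FPKM in Unstimulated, 4.89 and 7.44 in Control and 8.97 and 9.28 in SMF. *Srf* fell from Unstimulated to Control (log2 change -1.14 ± 0.46, unadjusted p = 0.0469, adjusted p = 0.180 in limma). Its cofactor *Mkl1* also fell, from 26.5 and 25.7 FPKM to 5.96 and 9.32 in Control (-1.68 ± 0.39, adjusted p = 0.0539 in limma), and stood at 10.6 and 8.27 in SMF. *Mkl2* stayed at or under 1.48 FPKM in all libraries and was not tested.

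The thymosins, which bind actin monomers and keep them from polymerizing, did not separate the groups. *Tmsb4x* (chrX:167207093-167209315) was at 243 and 515 FPKM in Unstimulated, 325 and 419 in Control and 388 and 386 in SMF. *Tmsb10* (chr6:72957347-72958748) was at 942 and 574 FPKM in Unstimulated, 979 and 640 in Control and 715 and 693 in SMF. The replicates of fresh cells differed by 2.12-fold for *Tmsb4x* and 1.64-fold for *Tmsb10*, in opposite directions, more than any difference between group means. None of the 6 fitted changes of the thymosins exceeded its standard error; they ranged from -0.17 to 0.13 on the log2 scale. *Tmsb10* made up 79.5% and 52.7% of the pair in Unstimulated, 75.1% and 60.4% in Control and 64.8% and 64.2% in SMF.

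Profilin serves the growth of filaments and cofilin the breakdown of old ones. *Pfn1* (profilin 1, which delivers monomers to growing ends, chr11:70651850-70654644) was at 542 and 468 FPKM in Unstimulated, 451 and 569 in Control and 1059 and 876 in SMF. Fresh and Control libraries overlapped and both SMF libraries lay above them. The fitted change was 0.01 ± 0.22 from Unstimulated to Control and 0.93 ± 0.22 for SMF against each of the other groups, which stayed under the fold limit of 2. The adjusted p was 0.0313 for SMF against Unstimulated and 0.145 for SMF against Control in limma. *Pfn1* passed the fold limit against Control without Control replicate 2 (1.09) or SMF replicate 2 (1.06), with TPM (1.06) and with quantile normalization (1.15). Against Unstimulated it did so without Unstimulated replicate 1 (1.04) or SMF replicate 2 (1.07) and with quantile normalization (1.01).

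*Cfl1* (cofilin 1, which severs aged filaments, chr19:5490455-5495201) was at 110 and 161 FPKM in Unstimulated, 159 and 226 in Control and 462 and 523 in SMF. The lower SMF library was above the higher Control library, and Control overlapped Unstimulated. *Cfl1* rose 2.58-fold from Control to SMF (log2 change 1.37 ± 0.29, unadjusted p = 0.00319, adjusted p = 0.140 in limma) and 3.68-fold from Unstimulated to SMF (1.88 ± 0.29, adjusted p = 0.0104 in limma). Its call against Control held in each alternative other than the adjusted threshold, with log2 changes from 1.03 to 1.62. The change from Unstimulated to Control, 0.51 ± 0.29, was not called. Of its copies, *Gm6180* on chromosome 8 was the highest, at 28.7 and 41.1 FPKM in SMF.

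*Coro1a* (coronin 1A, a filament-binding protein of blood cells that T cells need for survival, chr7:126699773-126707787) was at 175 and 167 FPKM in Unstimulated, 135 and 112 in Control and 188 and 189 in SMF. By these sums over transcripts, Control was the lowest group and SMF the highest, with no overlap between the groups. SMF against Unstimulated was only 0.14 ± 0.22 on the log2 scale. It turned to -0.115 with one median per library and to -0.345 with one protein-coding sum per library. The fitted changes stayed within the fold limit: -0.47 ± 0.22 for Control against Unstimulated and 0.61 ± 0.22 for SMF against Control (unadjusted p = 0.0323, adjusted p = 0.208 in limma). The annotated exons of *Coro1a* and *Bola2* overlap by 26 bases on opposite strands, and the reads were counted by strand. Exons of *Lcp1* overlap *Gm15628* and *Gm15629* by 311 and 219 bases, also on opposite strands.

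Filament branching is represented by a subunit of the Arp2/3 complex and by its activator. *Arpc2* (subunit 2, chr1:74236084-74268209) was at 74.9 and 85.1 FPKM in Unstimulated, 114 and 109 in Control and 216 and 200 in SMF. The 3 groups did not overlap and each replicate pair differed by at most 1.14-fold. *Arpc2* rose 2.58-fold from Unstimulated to SMF (log2 change 1.37 ± 0.23, adjusted p = 0.0121 in limma), a call lost with one protein-coding sum per library (0.88), while SMF against Control was 0.89 ± 0.23 and under the fold limit (unadjusted p = 0.00725, adjusted p = 0.151 in limma), though called with TPM (1.03).

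*Was* (the Wiskott-Aldrich syndrome protein, which activates Arp2/3 at the synapse, chrX:8081453-8090498) was at 18.7 and 27.7 FPKM in Unstimulated, 15.1 and 16.4 in Control and 36.0 and 25.2 in SMF. Control was below both other groups, and SMF overlapped Unstimulated. None of its changes was called; SMF against Control came to 0.90 ± 0.37 (unadjusted p = 0.0495, adjusted p = 0.237 in limma). With TPM it was called higher (1.05).

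*Lcp1* (plastin 2, the filament bundler of blood cells, chr14:75131101-75230842) was at 81.8 and 105 FPKM in Unstimulated, 115 and 176 in Control and 282 and 300 in SMF. The groups did not overlap. *Lcp1* rose 3.12-fold from Unstimulated to SMF (log2 change 1.64 ± 0.29, adjusted p = 0.0143 in limma). It rose 2.03-fold from Control to SMF (1.02 ± 0.29, unadjusted p = 0.0119, adjusted p = 0.167 in limma), and this call was lost with one median per library (0.68), with one protein-coding sum (0.69), without the variance trend, and without Control replicate 1 (0.72), SMF replicate 1 (1.07, past the limit of p) or SMF replicate 2 (0.98).

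Counted over the 10 genes, the libraries of SMF and Control did not overlap for 7 genes, all higher in SMF, against 37.4% of all genes higher and 17.4% lower. For SMF against Unstimulated the count was also 7 higher and 0 lower, against 39.7% and 26.0%. For Control against Unstimulated it was 3 higher (*Actg1*, *Lcp1* and *Arpc2*) and 2 lower (*Coro1a* and *Was*), against 24.8% and 26.6%. The mean of their standardized values over the 6 libraries correlated with *Pfn1* (Pearson r = 0.96), *Cfl1* (0.96), *Arpc2* (0.94) and *Lcp1* (0.93), but with *Tmsb4x* at 0.31 and *Tmsb10* at -0.36; these values contain each gene itself and describe 6 libraries that fall into groups. Among the 5 protein-coding genes closest to that mean, of 6913 with a mean of at least 5 FPKM, were *Lta4h*, *Gtf2h1*, *Qdpr* and *Ppm1g*, with r between 0.9955 and 0.9975. Each of these 4 stood higher in both SMF libraries than in the other 4, for example *Lta4h* at 67.4 and 59.2 FPKM in SMF against 31.9 to 38.3 elsewhere.

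The transcripts that carried the levels were not fixed for all genes. Transcript ENSMUST00000100497.10 carried 53.5% and 89.6% of *Actb* in Unstimulated, 72.1% and 93.4% in Control and 89.6% and 84.7% in SMF. For *Actg1*, ENSMUST00000106215.10 carried 20.5% and 46.0%, 53.1% and 63.6%, and 60.4% and 79.3% in the same order. For *Actb* the replicates of Unstimulated differed more than any pair of groups. For *Actg1* both fresh libraries lay below all 4 stimulated ones, and Control and SMF overlapped. For *Coro1a*, ENSMUST00000032949.13 carried 35.2% and 70.7% in Unstimulated, 49.6% and 55.3% in Control and 70.7% and 50.9% in SMF. ENSMUST00000174579.1 carried 35.1% of *Coro1a* in Unstimulated replicate 1 and 0% in the other libraries. For *Tmsb10*, ENSMUST00000114050.7 carried 58.7% in Unstimulated replicate 2 and 88.5% to 95.7% in the other libraries. These shares were not tested. By contrast, ENSMUST00000112172.3 carried 93.7% to 99.4% of *Tmsb4x* and ENSMUST00000116560.2 carried 85.5% to 99.1% of *Cfl1* in the 6 libraries. Coverage of the first exon relative to the last exon of the leading transcript, a sign of how evenly a message was read, was lowest in SMF: its median over the 10 genes was 0.168 and 0.261 in Unstimulated, 0.272 and 0.445 in Control and 0.129 and 0.136 in SMF. Its part in the fold changes was not tested.

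The other genes of actin dynamics were taken from 12 lists by role, 142 genes outside the 10, of which 140 were found and 116 tested. From Unstimulated to Control, 8 were called higher (6.90%) and 17 lower (14.7%), with a median of -0.22, against 12.3% and 12.6% called and a median of -0.05 over all genes tested. From Unstimulated to SMF, 22 were called higher (18.97%) and 12 lower (10.3%), with a median of 0.30, against 22.4%, 14.8% and 0.27 over all genes. From Control to SMF, 14 were called higher (12.1%) and 0 lower, with a median of 0.60, against 12.5% and 5.72% called and a median of 0.32 over all genes tested. By limma's adjusted p under 0.05, 7, 16 and 0 of the 116 passed in these comparisons (6.03%, 13.8% and 0%, against 8.48%, 23.6% and 0.0267% of all genes). An unadjusted p under 0.05 was found for 31, 43 and 21 (26.7%, 37.1% and 18.1%, against 26.9%, 39.1% and 21.1%). Genes of these lists named below as rising or falling were called by the study's thresholds, and not all of them passed the adjusted p.

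**Figure D4:**
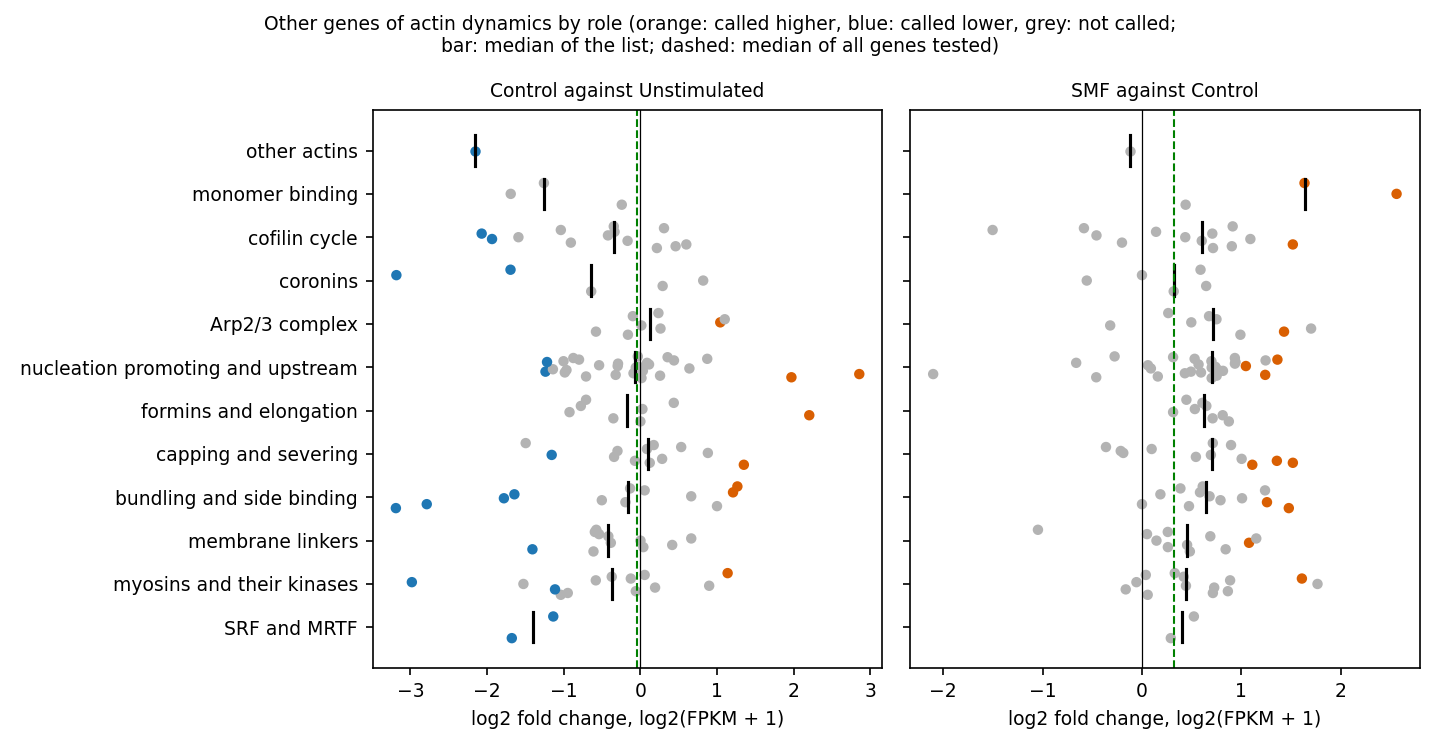
Log2 fold changes of the 116 other actin genes by role for Control against Unstimulated and SMF against Control; each point is a gene, colored where called, with the median of each list as a bar and that of all genes as a dashed line. In SMF against Control the 14 called genes are all higher and the list medians lie above the dashed line except that of the muscle actins, with the coronins on it.

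Of the Arp2/3 complex, 8 other subunit genes were tested. *Arpc3* rose from Unstimulated to Control, from 43.3 and 54.0 FPKM to 91.7 and 110 (log2 change 1.04 ± 0.26), and *Arpc4* rose from Unstimulated to SMF (1.85 ± 0.54). *Actr3*, one of the actin-related subunits, rose from 87.1 and 130 FPKM in Control to 250 and 331 in SMF (1.43 ± 0.31, adjusted p = 0.140 in limma). The complex had a median of 0.71 in SMF against Control, with 7 of 8 genes above 0, as were 97 of the 116 other actin genes and 60.2% of all genes, and *Arpc1b* at -0.32. Among the 28 genes that activate or steer branching, 2 were called higher and 2 lower from Unstimulated to Control, against 12.3% and 12.6% of all genes. *Cyfip1*, a subunit of the WAVE regulatory complex, rose from 6.41 and 8.38 FPKM to 60.6 and 58.0, but the SMF libraries gave 45.7 and 3.22. *Dock8*, an activator of *Cdc42*, fell by 1.24 on the log2 scale from Unstimulated to Control (SE 0.39). *Abi2*, another WAVE complex subunit, rose by 1.97 from Unstimulated to Control and by 1.51 from Unstimulated to SMF. Its change from Control to SMF was -0.46 and was not called. *Washc4*, of the WASH complex, was the leading rise from Control to SMF (1.36 ± 0.46).

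Among the 13 genes of the cofilin cycle, 0 were called higher and 2 lower from Unstimulated to Control, against the same shares of all genes (12.3% and 12.6%). *Ssh2*, a phosphatase that activates cofilin, fell from 14.6 and 20.3 FPKM in Unstimulated to 2.92 and 3.81 in Control (log2 change -2.07 ± 0.43, adjusted p = 0.0388 in limma) and stood at 6.65 and 5.57 in SMF. *Tesk1*, a kinase that inactivates cofilin, fell from Unstimulated to SMF, where its fresh replicates were 41.3 and 7.08 FPKM. *Gmfb*, which prunes Arp2/3 branches, rose from 12.1 and 15.7 FPKM in Control to 45.2 and 37.9 in SMF (1.52 ± 0.48). Of 6 other monomer-binding genes 3 were tested, and 2 were called higher in SMF than in Control, against 12.5% of all genes. They were led by *Twf1*, which was at 0 and 3.46 FPKM in Control and at 11.3 and 11.6 in SMF. Of 6 other coronins 5 were tested, and 2 were called lower from Unstimulated to Control, against 12.6% of all genes. *Coro2b* was at 16.1 and 3.81 FPKM in fresh cells and listed at 0 in all stimulated libraries.

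For capping and severing proteins, 1 of 12 genes was called higher from Unstimulated to Control, 4 from Unstimulated to SMF and 3 from Control to SMF, against 12.3%, 22.4% and 12.5% of all genes. *Capg*, a capping protein, was at 15.9 and 14.8 FPKM in Unstimulated, 48.9 and 33.7 in Control and 119 and 66.4 in SMF. It was called higher in all 3 comparisons. Its adjusted p in limma was 0.0861 for Control against Unstimulated, 0.0106 for SMF against Unstimulated and 0.199 for SMF against Control. *Capza1*, a subunit of the barbed-end capping protein, was at 31.6 and 33.7 FPKM in Control and 97.8 and 93.0 in SMF (1.52 ± 0.28, adjusted p = 0.136 in limma). *Cd2ap* was the called fall from Unstimulated to Control (-1.16 ± 0.44). *Diaph3*, a formin that elongates unbranched filaments, rose from 0.725 and 1.13 FPKM in Unstimulated to 7.33 and 8.35 in Control and 15.9 and 13.2 in SMF. It was the single formin or elongation gene called of 8 tested in either comparison with Unstimulated, against 12.3% and 22.4% of all genes higher and 12.6% and 14.8% lower. From Control to SMF, 0 of the 8 were called, against 12.5% of all genes higher and 5.72% lower.

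Of 12 genes for bundling and side-binding proteins, 2 were called higher and 4 lower in Control than in Unstimulated, against 12.3% and 12.6% of all genes. *Tpm4*, a tropomyosin that lines filaments, rose from 41.9 and 42.7 FPKM to 109 and 97.0 in Control and 165 and 151 in SMF. *Actn1*, an alpha-actinin that crosslinks filaments, fell from 36.7 and 38.3 FPKM to 2.38 and 4.27 in Control (log2 change -3.19 ± 0.40, adjusted p = 0.0134 in limma) and was higher again in SMF at 10.6 and 10.9 (1.48 ± 0.40 against Control, adjusted p = 0.160). *Aif1*, also a gene of macrophages, was at 8.62 and 3.95 FPKM in fresh cells and listed at 0 in all stimulated libraries, beside the fall in myeloid markers given above. Among 11 genes linking actin to the membrane, *Add3* fell from Unstimulated to Control (-1.41 ± 0.40). *Vcl* fell (-1.62 ± 0.54) and *Rdx* rose (1.81 ± 0.54) from Unstimulated to SMF. *Msn*, the moesin that anchors filaments at the T cell cortex, rose from 86.9 and 70.8 FPKM in Control to 169 and 165 in SMF (1.08 ± 0.25, adjusted p = 0.143 in limma).

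Among 13 genes of myosins and their kinases, *Rock2* rose (1.14 ± 0.37) and *Myo1f* fell to near 0 from Unstimulated to Control, while *Myo5a* rose from 2.83 and 2.30 FPKM in Control to 10.2 and 9.45 in SMF. Of the muscle actins, *Acta2* was at 3.24 and 8.10 FPKM in fresh cells and at most 0.928 in stimulated ones. *Actc1* and *Actg2* were listed at 0 in every library and *Acta1* in 5 of 6.

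As *Actb* served as the reference of the study's real-time PCR, its range was set beside 12 other reference genes. Over the 6 libraries the highest value of *Actb* was 2.91 times the lowest. The range was smaller for *Gusb* (1.69), *Sdha* (1.90) and *Tbp* (2.30). It was wider for the other 9, among them 7.29 for *Gapdh* and 51.2 for *Pgk1*, both enzymes of glycolysis. The place of *Actb* in this order rests on Control replicate 1, where it was at 463 FPKM. In the other libraries *Actb* lay between 954 and 1348 FPKM, relatively closer together than *Gusb* there, at 20.2 to 34.0. From Control to SMF, *Actb* was not called, and 2 of the 12 were called higher, *Ppia* (1.40 ± 0.34) and *Pgk1* (1.05 ± 0.36), against 12.5% of all genes. From Unstimulated to Control and to SMF, 4 and 7 of the 12 were called higher and 0 lower, against 12.3% and 22.4% of all genes higher and 12.6% and 14.8% lower. *Gapdh* is known to have many near-identical copies in the mouse genome. Copies of the 12 other reference genes were not measured here, so how far their levels are uncertain is not known.

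**Figure D5:**
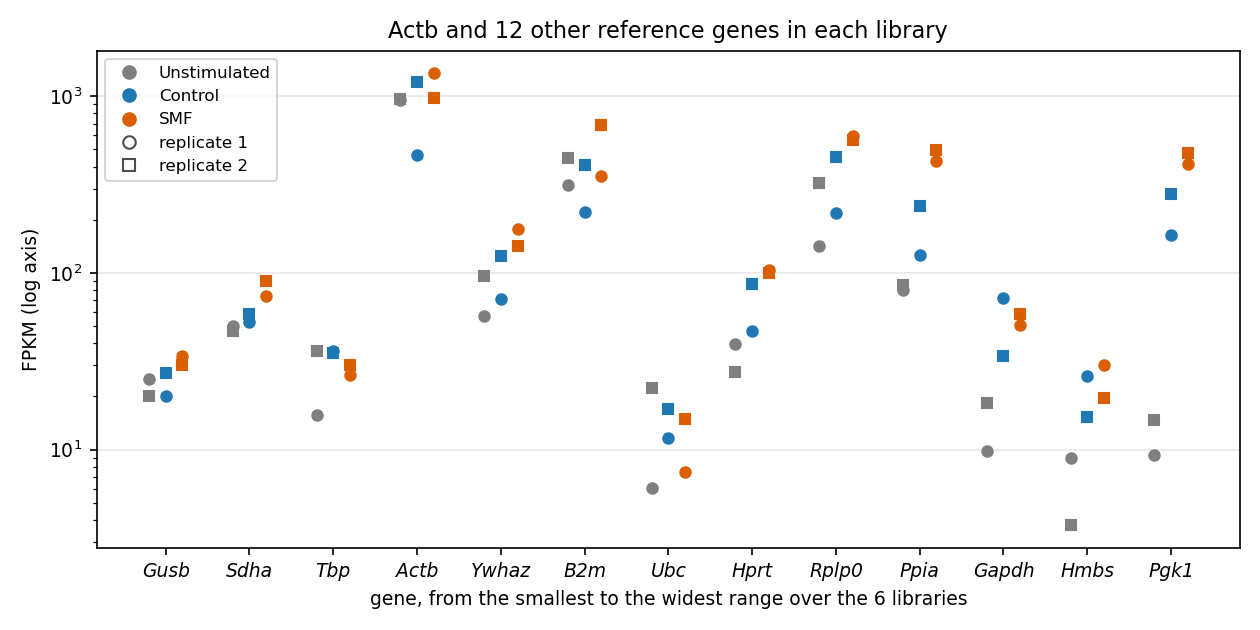
FPKM (log axis) of *Actb* and 12 other reference genes in the 6 libraries, ordered by the ratio of the highest to the lowest value; colors are groups and shapes are replicates. Control replicate 1 is the low *Actb* value at 463 FPKM, and *Pgk1* has the widest range.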

How the data were processed

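Mouse CD8+ T cell libraries from 3 groups of 2 were analysed. The authors deposited 1 StringTie 1.3.5 file per library (GRCm38, GENCODE M19, annotated transcripts only, reads treated as stranded), and the submitters' processing notes also name Trimmomatic 0.36 and HISAT2. The deposited values, named in the file's attribute column, are FPKM and TPM, normalized by the authors for library size and transcript length, and coverage, which is not normalized. Read counts could not be recovered from them. Of a further deposited table, the 3 value columns could be matched to none of the samples and were not used.

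FPKM was summed over the transcripts of a gene. Genes whose mean reached 1 FPKM (14991 of 54446) were fitted on log2(FPKM + 1) with limma 3.58.1 in R 4.3.3, with a variance trend and 3 residual degrees of freedom. On this scale the fold change of a low gene is understated. Calls used a fold of 2 and an unadjusted p of 0.05, with Benjamini-Hochberg values over all genes tested. Copies were found with minimap2 2.31 among GENCODE M21 transcripts. Levels, ranks and figures used Python 3.11.15, pandas 2.3.3 and matplotlib 3.10.9.

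The 10 genes and all lists were chosen with earlier results of these data known. Named beside the 10 were, in each list of actin genes, the called gene with the largest change in each direction whose libraries did not overlap, every gene of lists of 5 or fewer genes before any filter, and the 5 genes closest to the members' mean. A B cell marker and a gene among those 5 are not reported here. Alternatives were other pseudocounts (0.1 and 5), filters, scalings, TPM, the variance model, a replicate block, fits of 4 libraries, copies added, an adjusted threshold and leaving out each library.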

Additional observations from a re-analysis of the deposited data

How the results depend on the processing

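The counts of the 10 genes called higher were 1 from Unstimulated to Control under every alternative and 3 to 5 from Unstimulated to SMF. From Control to SMF, where the main count was 2, it was 5 with TPM (*Pfn1*, *Arpc2* and *Was* added), 3 with quantile normalization (*Pfn1* added), 1 with one median per library, 1 with one protein-coding sum per library, 1 without the variance trend and 0 with the adjusted threshold, at which limma passed 4 of 14991 genes. Leaving out one library gave 1 to 4 genes, with 4 without Control replicate 2 (*Actb*, *Cfl1*, *Pfn1* and *Lcp1*) and 1 without Control replicate 1 or SMF replicate 1. Leaving out one library gave 0 to 1 genes called lower from Unstimulated to Control; the 1 was *Actb* without Control replicate 2. The medians of the 10 genes moved to 0.41 and 0.19 for SMF against Unstimulated with one median and with one protein-coding sum per library, and to 0.41 and 0.42 for SMF against Control. For Control against Unstimulated, 0.08 in the fit reported, the median was 0.29 without Control replicate 1 and -0.06, -0.07 and -0.06 with TPM, one protein-coding sum and quantile normalization. The adjusted p in limma for SMF against Unstimulated reached at most 0.0804 for *Actg1*, 0.106 for *Cfl1*, 0.115 for *Lcp1*, 0.0950 for *Arpc2* and 0.201 for *Pfn1* over the alternatives, all but the last of these without an SMF library.

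Signs turned for genes that were not called. For Control against Unstimulated, TPM, one protein-coding sum and quantile normalization gave -0.14, -0.15 and -0.14 for *Pfn1*, -0.083, -0.092 and -0.060 for *Tmsb4x* and -0.036, -0.046 and -0.051 for *Tmsb10*. For SMF against Unstimulated, one median per library gave -0.12 for *Coro1a* and -0.12 for *Tmsb4x*, and one protein-coding sum gave -0.23 for *Actb*, -0.35 for *Coro1a*, -0.36 for *Tmsb4x* and -0.075 for *Was*. For SMF against Control, *Tmsb4x* came to -0.27 with one median and -0.26 with one protein-coding sum. The cause was not tested. Leaving out one library also turned signs. *Actb* ranged from -1.05 to 0.33 for Control against Unstimulated and from -0.075 to 1.31 for SMF against Control, and *Pfn1* from -0.16 to 0.17 for Control against Unstimulated. In the order Control against Unstimulated, SMF against Unstimulated and SMF against Control, *Tmsb4x* ranged from -0.48 to 0.60, -0.41 to 0.67 and -0.11 to 0.25, and *Tmsb10* from -0.25 to 0.46, -0.42 to 0.29 and -0.47 to 0.14.

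Replicate numbers were checked as pairs: the deviations of same-numbered libraries from their group means correlated at 0.096 for Unstimulated with Control, 0.03 for Unstimulated with SMF and 0.02 for Control with SMF over 14991 genes, each under the 0.1 taken to show pairing. For Unstimulated and Control the number also marks the date in the file headers, and a block over these 4 libraries left *Actg1* the 1 gene called. Both SMF libraries share a date of their own, so a block over 6 libraries joins each to a date it does not share. With that replicate block 1, 4 and 2 of the 10 genes were called, with *Cfl1* at 1.37 ± 0.23 for SMF against Control, and no call of the 10 genes changed. Groups of 2 and unknown read counts limit the precision: differences below about the spread of the Control libraries could not be resolved for *Actb*.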
